A study of Mus musculus with 4 samples.

Results

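The genes described here belong to lipid efflux and lipid uptake, with Apoe at their head: Apoe, Abca1, Abcg1, Nr1h2, Nr1h3, Lpl, Cd36, Scarb1, Npc2 and Smpdl3a. Of these 10 genes, 9 were measured, among 12393 genes in all. Nr1h2 had no probe set given to it alone and has no value. The 9 genes were read by 17 of 22626 probe sets, where a probe set is the group of short array probes that together read 1 transcript. Apoe and Smpdl3a were chosen by their measured difference between genotypes, which was higher in AhR-deficient cells, so their differences are a description and carry no test. The other genes were listed for their role, but with earlier results of these data known.

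The cells were Langerhans cells, the dendritic cells of the epidermis, sorted from mouse ear skin after 16 hours of culture. The labels differ on whether whole epidermal sheets or loose epidermal cells were cultured. Sorting for live cells with MHC class II reached a purity above 95%, and other cells bearing class II would also pass that gate. One group came from mice lacking exon 2 of the gene for AhR, the aryl hydrocarbon receptor, a ligand-activated transcription factor, and the other from wild-type C57BL/6 mice. Each group had 2 arrays, labelled biological replicates, and the mice were untreated. The labels give no age and no number of mice per array, and name no strain background for the deficient mice. The deletion is not described as limited to a cell type, so other skin cells of these mice may lack AhR too. Since nothing says how the replicates were kept apart, the p-values measure only the spread between these arrays, which may be technical.

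Cells dispose of cholesterol mainly by exporting it. The liver X receptors, LXR-alpha (Nr1h3) and LXR-beta (Nr1h2), sense oxysterols and switch on the transporters Abca1 and Abcg1, which load cholesterol onto carrier proteins such as apolipoprotein E. Uptake runs the other way: lipoprotein lipase (Lpl) frees fatty acids from triglycerides, the scavenger receptors CD36 and SR-BI (Scarb1) take up lipids, and NPC2 moves cholesterol out of the lysosome. Apolipoprotein E is made in quantity by macrophages and is also known from epidermal cells.

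All values below are log2 expression values, and a difference is AhR-deficient minus wild-type with its SE from limma (n = 2 arrays per genotype). A difference of 1 on this scale is a doubling. Levels of different genes cannot be set against each other, since probes differ in brightness. Expression was measured in bulk, so fewer cells of a kind and less RNA per cell cannot be told apart.

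The 4 measured genes with differences above 1 and with both AhR-deficient values above both wild-type ones were Apoe, Smpdl3a, Lpl and Cd36. They fell into pairs by how the replicates behaved. Apoe and Smpdl3a were higher to a similar extent on both AhR-deficient arrays, while Lpl and Cd36 were far higher on AhR-deficient replicate 1 than on replicate 2. The cholesterol exporters Abca1 and Abcg1, by their brightest probe sets, lay below wild-type on both AhR-deficient arrays by small margins, and the other Abca1 probe sets overlapped.

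Among the 9 measured genes, each read by its brightest probe set, 5 were higher without overlap (each AhR-deficient value above each wild-type one), 2 were lower without overlap and 2 overlapped. Over all genes, 18.8% were higher without overlap and 16.6% lower. Apoe and Smpdl3a are 2 of the 5 and were picked for it, which leaves 3 higher and 2 lower of 7 genes. The median difference of the 9 genes was 0.31 and that of the 7 was 0.11, beside 0.01 over all genes. The median of 0.31 is the value of Scarb1. By probe set, 7 of 17 were higher without overlap and 2 lower, where all probe sets gave 19.0% and 16.2%. A higher value without overlap together with a difference of at least 1 was seen for 4 of the 9 genes and for 2 of the 7, against 0.460% of all genes. Those 2 were Lpl and Cd36, whose sizes rest largely on 1 array. The 7 were also listed with earlier results of these data known, so these shares are a description and no sign of enrichment. With 16 added on the linear scale before taking log2, which damps dim signals, the counts were 2 of 9 (Smpdl3a and Lpl) and 1 of 7, as Apoe came to 0.83 and Cd36 to 0.74. Without AhR-deficient replicate 1 they were 3 of 9 and 1 of 7.

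None of the 15 probe sets of the 7 tested genes passed limma at an adjusted p under 0.05, with adjusted p-values from 0.755 to 1.0. Only 0.0177% of all probe sets passed. At an unadjusted p under 0.05 there were 4 of the 15 (Abca1, Lpl, Cd36 and Scarb1, 1 probe set each), beside 6.00% of all probe sets.

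**Figure D1:**
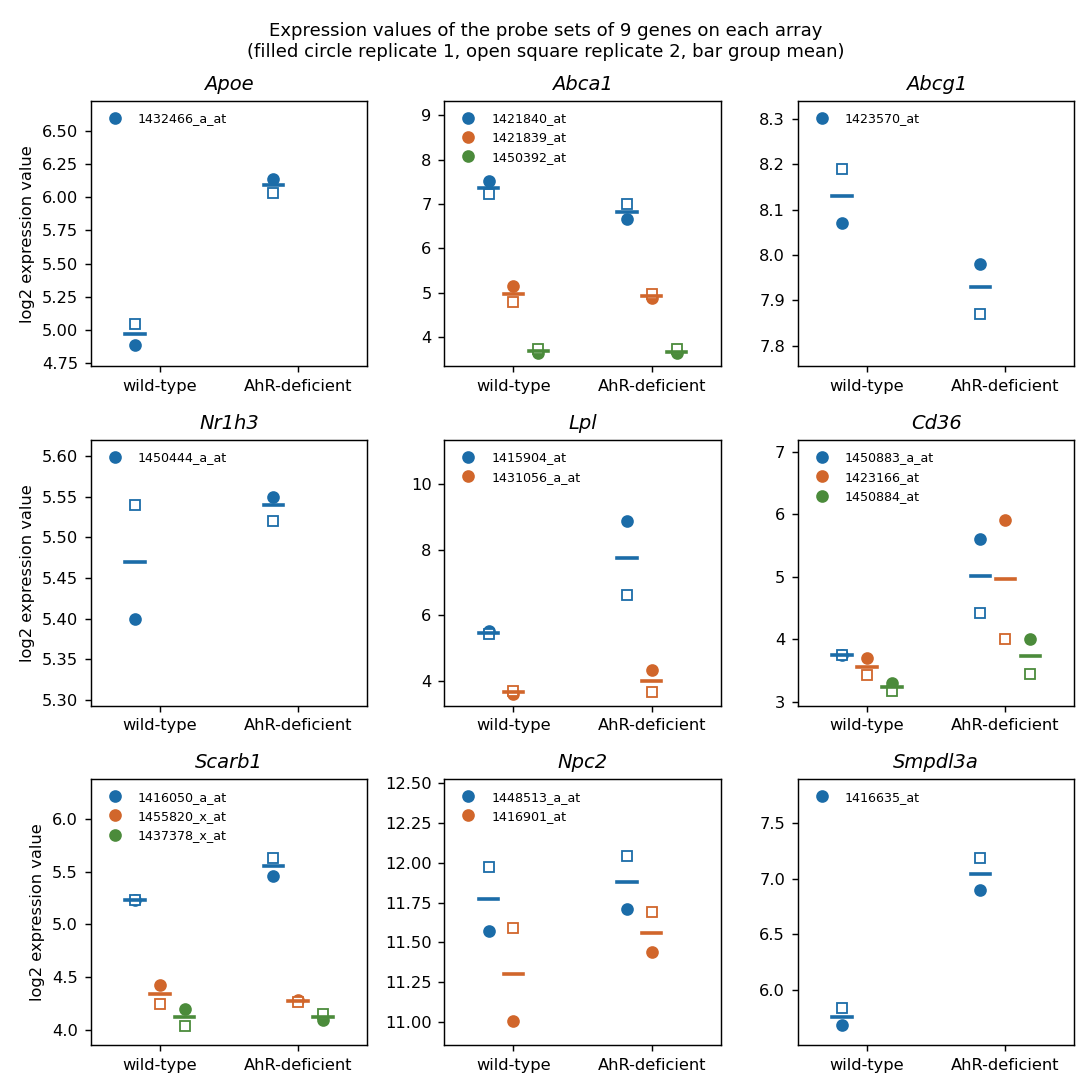
Log2 expression value of each probe set (vertical axis, scaled separately for each gene) in wild-type and AhR-deficient cells, 1 panel per gene and 1 colour per probe set, with circles for replicate 1, squares for replicate 2 and bars for group means. Apoe and Smpdl3a separate by genotype with close replicates, whereas the AhR-deficient values of Lpl and Cd36 lie far apart.

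Apoe, the carrier of cholesterol and phospholipid, was read by 1 probe set (1432466_a_at). Its values were 6.14 and 6.03 on the AhR-deficient arrays and 4.89 and 5.05 on the wild-type arrays. The replicates of each genotype lay within 0.17 of each other, and the genotypes were 0.98 apart at their closest. The difference was 1.12 (SE 0.10), or 2.17-fold. Leaving out any 1 array kept it between 1.03 and 1.20. As no detection calls were used, whether the wild-type value stands above background is unknown, but all 4 values lay above the arrays' 25th percentiles, which ranged from 4.54 to 4.57.

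Smpdl3a, a secreted and lysosomal phosphodiesterase of the acid sphingomyelinase family known as an LXR target in human macrophages, behaved like Apoe. Its values were 6.90 and 7.19 on the AhR-deficient arrays and 5.68 and 5.84 on the wild-type arrays. Both AhR-deficient arrays stood at least 1.07 above the wild-type arrays, with no overlap. The difference was 1.28 (SE 0.13), or 2.44-fold, and ranged from 1.14 to 1.43 when any 1 array was left out. Its relatives lay on the other side. Smpd1, the acid sphingomyelinase itself, was 6.70 and 6.55 against 6.89 and 6.85 (difference -0.24, SE 0.09), and Smpdl3b was 4.33 and 4.37 against 4.38 and 4.48 (difference -0.08, SE 0.08), below the 25th percentile throughout. Neither passed, with limma adjusted p-values of 0.834 and 0.920.

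Of the LXR pair, Nr1h3, which encodes LXR-alpha, gave 5.55 and 5.52 on the AhR-deficient arrays and 5.40 and 5.54 on the wild-type arrays. The genotypes overlapped, and the difference of 0.07 (SE 0.09) did not pass (limma adjusted p = 0.939). The receptors' partners were as close: Rxra, the retinoid X receptor alpha, differed by 0.07 (SE 0.09) and Rxrb by 0.09 (SE 0.09).

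The promoters of Apoe and Abca1 are shown because both genes are textbook LXR targets and their values went opposite ways here. RefSeq promoter windows of 250 bases before to 50 after a gene's start (build GRCm38.p6) were matched by symbol for 6 of the 10 genes, with 9 windows in all. Entries for Abcg1, Lpl, Scarb1 and Smpdl3a were missing. LXR with RXR binds pairs of the motif AGGTCA in the same orientation with 4 bases between them, known as DR4. No window of the 9 held an exact pair on either strand, and 0.0152% of 32851 windows in the table did. A pair so rare would hardly be met in 9 windows, so its absence says nothing on LXR action. Sequence outside the windows was not searched. Capitals mark the stretch closest to such a pair in the outermost Apoe window (chr7:19699139-19699438, minus strand), with 4 of 12 fixed letters mismatched, and in the Abca1 window (chr4:53159846-53160145, minus strand), with 3 mismatched.
Apoe: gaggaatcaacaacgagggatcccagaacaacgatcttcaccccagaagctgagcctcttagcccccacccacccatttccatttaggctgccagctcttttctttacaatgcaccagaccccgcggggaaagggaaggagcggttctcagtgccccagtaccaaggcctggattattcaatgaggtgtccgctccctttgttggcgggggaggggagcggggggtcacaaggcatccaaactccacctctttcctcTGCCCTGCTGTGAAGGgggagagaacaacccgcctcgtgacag
Abca1: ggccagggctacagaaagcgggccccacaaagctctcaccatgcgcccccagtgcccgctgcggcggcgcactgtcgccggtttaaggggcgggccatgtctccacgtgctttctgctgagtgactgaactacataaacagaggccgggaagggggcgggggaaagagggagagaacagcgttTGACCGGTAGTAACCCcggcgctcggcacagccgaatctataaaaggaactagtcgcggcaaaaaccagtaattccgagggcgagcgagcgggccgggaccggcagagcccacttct
The Abca1 stretch begins 67 bases before the start, on the reverse strand. It was the only one of the 9 windows within 3 mismatches, a closeness that 21.9% of all windows reached, and the other 8 stood at 4 mismatches, which 76.9% of windows reached or bettered. Closeness in letters is a description only, and whether LXR binds any of these stretches was not tested.

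Abca1, which exports cholesterol and phospholipid to lipid-poor apolipoproteins, was read by 3 probe sets. The brightest (1421840_at) was 6.65 and 7.0 on the AhR-deficient arrays and 7.51 and 7.22 on the wild-type arrays. The groups did not overlap, but the gap between them (0.21) was smaller than the gap between replicates (0.35 and 0.29). The difference of -0.53 (SE 0.17) did not pass (limma adjusted p = 0.795), and it was -0.36 without AhR-deficient replicate 1 and -0.71 without replicate 2. Its other probe sets overlapped between genotypes, with differences of -0.05 (SE 0.15) and -0.01 (SE 0.08). The second of them (1450392_at) lay below the 25th percentile on all 4 arrays.

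Abcg1, which passes cholesterol on to mature HDL particles, was 7.98 and 7.87 on the AhR-deficient arrays and 8.07 and 8.19 on the wild-type arrays. The groups were 0.08 apart at their closest, which is less than the replicate gap of 0.12 in either. The difference was -0.20 (SE 0.09) and did not pass (limma adjusted p = 0.861). By their brightest probe sets both exporters thus lay on the side opposite to Apoe and Smpdl3a on every array, and the contrast between the pairs was not tested, as Apoe and Smpdl3a had been picked for their direction.

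Lpl showed the largest difference of the 9 genes and the least even one. Its brighter probe set (1415904_at) was 8.87 and 6.61 on the AhR-deficient arrays and 5.52 and 5.42 on the wild-type arrays. Both AhR-deficient arrays stood above wild-type, but they were 2.26 apart from each other. The difference of 2.27 (SE 0.78) did not pass (limma adjusted p = 0.811). It was 1.14 without AhR-deficient replicate 1 and 3.40 without replicate 2. The other Lpl probe set (1431056_a_at) lay below the 25th percentile on all arrays, at 4.35 and 3.67 against 3.62 and 3.70, so it too was highest on AhR-deficient replicate 1.

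Cd36, the fatty acid and oxidised lipoprotein receptor, followed the same array. Its 3 probe sets were all highest on AhR-deficient replicate 1 and next highest on replicate 2. The brightest (1450883_a_at) gave 5.60 and 4.42 in the AhR-deficient cells, against 3.75 on both wild-type arrays. The difference was 1.26 (SE 0.41, limma adjusted p = 0.795), with 0.67 left without AhR-deficient replicate 1 and 1.85 without replicate 2. For 1423166_at the values were 5.91 and 4.0 against 3.70 and 3.42, and the difference was 1.40 (SE 0.66), or 0.45 without AhR-deficient replicate 1 and 2.35 without replicate 2. For 1450884_at the values were 4.01 and 3.44 against 3.30 and 3.17, all below the 25th percentile. The wild-type values of all 3 lay below the 25th percentile, as did those on AhR-deficient replicate 2. Only AhR-deficient replicate 1 stood above it, for 1450883_a_at and 1423166_at.

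The Cd36 promoter window is shown because it alone of the 9 holds the single motif AGGTCA, here in capitals on the reverse strand, a sequence found in 16.3% of all windows on either strand (chr5:17835847-17836146, minus strand).
Cd36: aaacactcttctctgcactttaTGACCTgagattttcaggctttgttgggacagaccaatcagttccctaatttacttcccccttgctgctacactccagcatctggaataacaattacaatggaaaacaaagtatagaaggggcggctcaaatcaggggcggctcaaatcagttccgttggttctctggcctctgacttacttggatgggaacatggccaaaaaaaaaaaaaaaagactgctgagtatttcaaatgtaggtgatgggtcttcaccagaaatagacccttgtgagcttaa
The motif begins 228 bases before the start, and single copies of it are bound by many nuclear receptors besides LXR.

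Scarb1, which encodes the HDL receptor SR-BI, was read by 3 probe sets that disagreed. The brightest (1416050_a_at) was 5.46 and 5.63 in the AhR-deficient cells, against 5.23 on both wild-type arrays. The difference of 0.31 (SE 0.09) did not pass, although its adjusted p of 0.755 in limma was the smallest of the tested probe sets. The other probe sets, whose names end in _x_at because their probes may bind further transcripts, overlapped between genotypes and lay below the 25th percentile on all arrays, with differences of -0.06 (SE 0.09) and 0.00 (SE 0.09).

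Npc2, the soluble lysosomal protein that hands cholesterol to NPC1, did not separate the genotypes. Its probe sets gave 11.71 and 12.04 against 11.57 and 11.97, and 11.44 and 11.69 against 11.01 and 11.59. The groups overlapped in both, with differences of 0.11 (SE 0.19) and 0.26 (SE 0.23). Npc1 overlapped as well, with a difference of -0.02 (SE 0.19). The Npc2 window (chr12:84773063-84773362, minus strand) is shown because it alone of the 9 holds GCGTG, the core of the DNA element that AhR with ARNT binds, in capitals 83 bases before the start.
Npc2: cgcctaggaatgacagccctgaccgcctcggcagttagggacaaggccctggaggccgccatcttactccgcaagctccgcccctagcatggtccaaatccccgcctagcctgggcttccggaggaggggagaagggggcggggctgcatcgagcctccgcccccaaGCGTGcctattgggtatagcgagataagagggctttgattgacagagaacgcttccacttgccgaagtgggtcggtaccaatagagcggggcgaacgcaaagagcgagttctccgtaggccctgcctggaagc
This core was found in 32.4% of all windows on either strand, and whether AhR binds it in these cells was not tested.

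**Figure D2:**
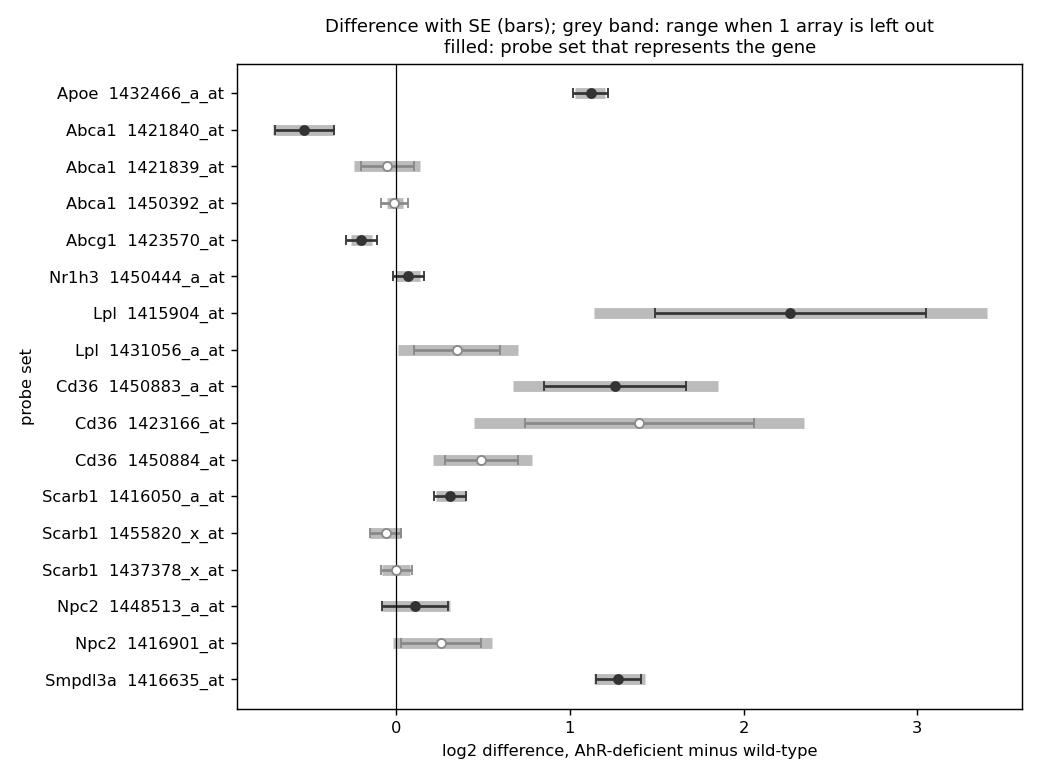
Log2 difference of each of the 17 probe sets (points, horizontal axis; AhR-deficient minus wild-type) with its SE as bars, and the range of the difference when any 1 array is left out as a grey band. The bands of Apoe (1.03 to 1.20) and Smpdl3a (1.14 to 1.43) are narrow, and that of the brighter Lpl probe set runs from 1.14 to 3.40.

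The wider pathway was read in 6 lists, in which 80 genes were measured in all. None of the 80 passed limma in either direction at an adjusted p under 0.05, and 9 had an unadjusted p under 0.05, beside 6.54% of all genes. Of them, 16 were higher without overlap, 12 lower and 52 overlapped, with a median of 0.04. The share that was higher lay near that of all genes, where 18.8% were higher without overlap and 16.6% lower.

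Of 13 other LXR partners and targets, 1 was higher without overlap and 1 lower (median 0.04), beside 18.8% and 16.6% of all genes. The LXR targets Mylip, a ubiquitin ligase, Pltp, the phospholipid transfer protein, and Srebf1, a regulator of fatty acid synthesis, differed by 0.05 (SE 0.19), -0.07 (SE 0.24) and 0.04 (SE 0.14). The apolipoprotein genes Apoc1 and Apoc2, neighbours of Apoe in the genome, overlapped between genotypes with differences of -0.11 (SE 0.15) and 0.05 (SE 0.11). The higher gene was Scd2, a fatty acid desaturase, at 7.83 and 7.09 against 6.10 and 6.49 (difference 1.17, SE 0.29, limma adjusted p = 0.706). Its other probe sets differed by 0.15 and -0.01. The lower gene was the coactivator Ncoa1 (-0.16, SE 0.10).

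For lipoprotein and fatty acid uptake, 5 of 18 genes were higher without overlap and 3 lower, beside 18.8% and 16.6% of all genes. The median was 0.05. Fabp5, the epidermal fatty acid binding protein, was 12.18 and 12.12 on the AhR-deficient arrays and 11.31 and 10.30 on the wild-type arrays. The AhR-deficient arrays were close and the wild-type arrays were not. The difference was 1.34 (SE 0.36, limma adjusted p = 0.710), and its other probe set differed by 1.88 (SE 0.42). Marco, a macrophage scavenger receptor, differed by 0.56 (SE 0.10, limma adjusted p = 0.533), while the scavenger receptor Msr1 overlapped (0.07, SE 0.09).

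Among genes of lysosomal lipid breakdown and export, 6 of 19 were higher without overlap and 2 lower, beside 18.8% and 16.6% of all genes. Their median difference was 0.09. This median was 0.04 to 0.23 when any 1 array was left out. Gla, the alpha-galactosidase of glycolipids, was 5.49 and 5.74 against 4.80 and 5.01 (difference 0.71, SE 0.13, limma adjusted p = 0.553), and its other, dim probe set differed by 0.12. Lipa, the acid lipase that frees cholesterol from its esters, was 8.05 and 7.99 against 7.24 and 7.59 (difference 0.61, SE 0.14), but its other probe sets overlapped with differences of 0.13 and 0.03.

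For cholesterol ester storage and oxysterols, 3 of 13 genes were higher without overlap and 1 lower, beside 18.8% and 16.6% of all genes. The median was 0.02. Stard4, a carrier of cholesterol inside cells, had close replicates at 7.96 and 7.91 against 7.34 and 7.27 (difference 0.63, SE 0.08, limma adjusted p = 0.374), and its other probe set differed by 0.56 (SE 0.12). Cyp27a1, which makes an oxysterol that LXR binds, differed by 0.29 (SE 0.12, limma adjusted p = 0.857).

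Of 7 regulators of lipoprotein lipase, 4 were lower without overlap and 1 higher (median -0.11), beside 16.6% and 18.8% of all genes. Their differences, by brightest probe set, lay between -0.22 and 0.13. Those with the smallest p were Apoa5, an activator of the enzyme, at -0.22 (SE 0.09) and Lipg, the endothelial lipase, at -0.11 (SE 0.08). Among 10 other lipid-sensing nuclear receptors and coactivators, 0 were higher without overlap and 1 lower. That was Ppargc1b, at -0.24 (SE 0.09). Rora differed by 0.31 (SE 0.18), and Pparg, which drives Cd36 and Lpl in other cells, by 0.02 (SE 0.07).

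**Figure D3:**
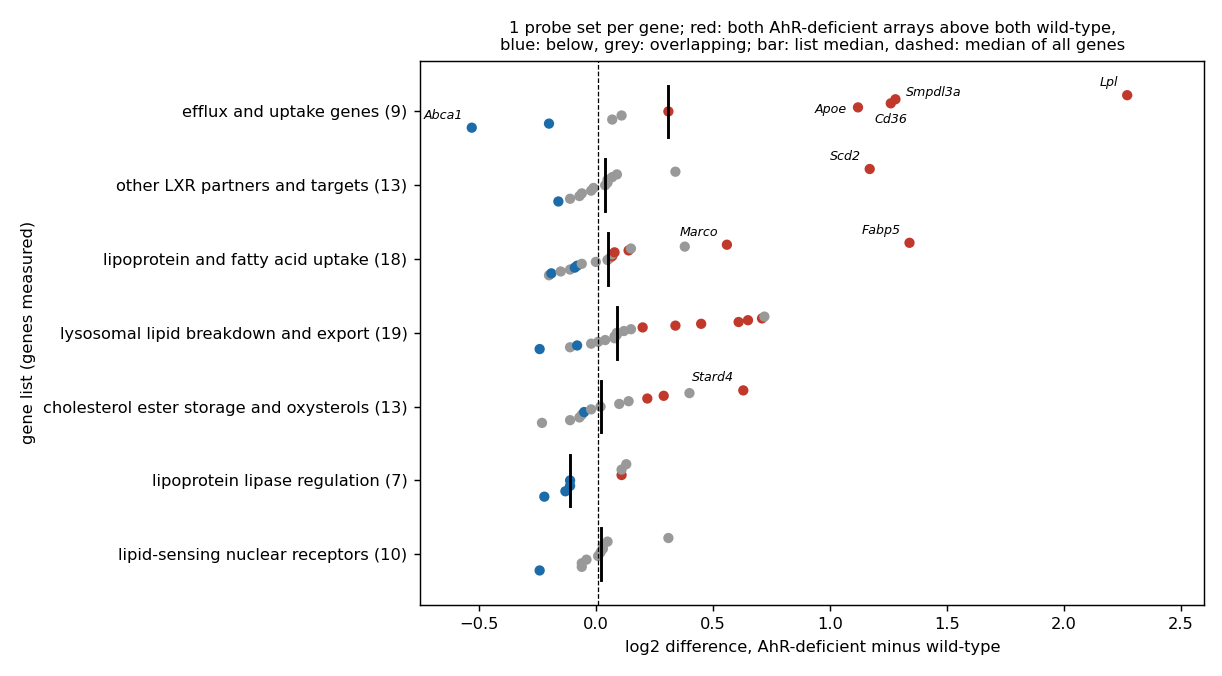
Log2 difference (horizontal axis; AhR-deficient minus wild-type) of each measured gene, 1 point per gene, in the efflux and uptake genes and in 6 pathway lists. Points are red where the AhR-deficient values lay above the wild-type ones without overlap, blue where below and grey where they overlapped, with list medians as bars and the median of all genes (0.01) dashed. Scd2 (1.17) and Fabp5 (1.34) lie apart from the rest of their lists, whose medians run from -0.11 to 0.09.

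The 5 genes whose array pattern lay closest to Apoe were found by the root mean square distance between values centred on each gene's mean, over the 4 arrays. They were Gdap10 (0.039), Oasl2 (0.049), Ifi209 (0.084), Cd74 (0.096) and Trim30a (0.103), with distances in log2 units. Oasl2, Ifi209 and Trim30a are interferon-inducible, and Cd74 is the invariant chain of MHC class II. Smpdl3a ranked 23 of 12392 genes by this distance (0.161), and both genes had been picked for the same direction. Cd36 ranked 383, Scarb1 533, Abca1 12171 and Lpl 12285, where a large difference of Lpl in size and evenness puts it far from Apoe. Over 4 arrays in 2 groups, the distance mainly reflects the direction and size of the difference between genotypes.

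Markers of other cells were high on the same arrays as some of these genes. Markers of keratinocytes, the main cells of the epidermis, had a summed linear signal over 13 genes of 965 on AhR-deficient replicate 1, 525 on replicate 2, and 474 and 521 in wild-type cells. The array with the highest Lpl and Cd36 was thus the one with most keratinocyte signal, and 9 of the 13 markers were highest there. This was not particular to keratinocytes. On that array 9 of 13 macrophage and monocyte markers and 6 of 9 Langerhans cell markers were also highest. Among these keratinocyte markers was the defining Krt14 (5.55, then 4.96, 4.60 and 4.76, with the AhR-deficient arrays first). Others were Dsp (6.60, then 5.45, 4.47 and 4.93) and Krt10 (6.03, then 4.79, 4.72 and 4.75). Of the other keratinocyte markers, 2 were highest on wild-type replicate 1 and 2 on wild-type replicate 2. Krt1 was near level, at 5.42 and 5.34 against 5.45 and 5.24. Of the 13 keratinocyte markers, 5 were higher without overlap and 2 lower (0 passing limma, 1 at an unadjusted p under 0.05), beside 18.8% and 16.6% of all genes. On every array, 4 of them (Krt15, Sfn, Ivl and Flg) lay below the 25th percentile. Lor weighs most in the sum, at a linear signal of 369 on AhR-deficient replicate 1 and 106 on replicate 2, and without it the sums were 596 and 420 against 368 and 400 over 12 genes. Keratinocytes also express Apoe and Fabp5, and the part of keratinocyte RNA in the values of these genes, Lpl and Cd36 was not tested. Without AhR-deficient replicate 1, the Lpl difference was 1.14 and that of Cd36 0.67.

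Of 13 macrophage and monocyte markers, Marco included, 9 were higher without overlap and 2 lower, beside 18.8% and 16.6% of all genes, with a median of 0.70. None passed limma at an adjusted p under 0.05, and 7 had an unadjusted p under 0.05, beside 6.54% of all genes. Cd68 was 8.53 and 8.34 against 7.08 and 7.55, C1qa was 8.11 and 7.59 against 6.25 and 7.24, and Lyz2 was 7.48 and 6.48 against 6.18 and 5.92. The 2 lower genes were Adgre1 at 6.92 and 5.84 against 7.11 and 7.43 (difference -0.89, SE 0.39) and Csf1r at 10.54 and 10.14 against 11.07 and 11.70 (difference -1.05, SE 0.26). Other Csf1r probe sets differed by -0.93 (SE 0.20) and -0.58 (SE 0.39), the latter with overlap. Langerhans cells express Adgre1 and Csf1r too, and their own part in the values of the higher markers was not tested. The summed signal of the list, in which Csf1r weighs heavily, overlapped at 3294 and 2431 against 2957 and 4348, and Fcgr1 lay below the 25th percentile on every array. The part of macrophages in the Apoe, Smpdl3a, Lpl and Cd36 values was not tested.

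The fat cell markers Adipoq and Cidec lay below the 25th percentile on every array. Fabp4, a further fat cell gene, was 4.82 and 4.89 against 4.76 and 4.67 by its brightest probe set, above that percentile on every array. The other Fabp4 probe sets lay below it on every array, with differences of -0.02, -0.02 and 0.05. The part of fat cells in the Lpl and Cd36 values was not tested. The stromal, endothelial and fat cell list summed to 391 and 410 against 429 and 413 over 9 genes, with 2 higher without overlap and 5 lower. T cell markers summed to 334 and 369 against 473 and 430 over 8 genes, with 0 higher without overlap and 5 lower, among them Cd3g at 4.52 and 4.26 against 5.80 and 5.50. Melanocyte markers summed to 498 and 490 against 507 and 543 over 7 genes, with 0 higher without overlap and 2 lower. Langerhans cell markers summed to 15961 and 15153 against 10119 and 12821 over 9 genes, of which 4 were higher without overlap and 1 lower. Over all genes, 18.8% were higher without overlap and 16.6% lower. No marker of these lists passed limma. At an unadjusted p under 0.05 there were 5 T cell, 4 Langerhans cell, 1 melanocyte and 0 stromal, endothelial and fat cell markers, beside 6.54% of all genes. Of the 9 Langerhans cell markers, Cdh1 lay below the 25th percentile on AhR-deficient replicate 2 and wild-type replicate 1 (4.40 and 4.06), and the other 8 lay above it on every array. The defining lectin Cd207 was 11.21 and 11.71 against 11.00 and 12.06, so its groups overlapped. As a sign of RNA quality, the 3' minus 5' log2 signal of the beta-actin control was 2.34 and 2.61 against 3.16 and 2.65. That of Gapdh overlapped at 2.24 and 2.19 against 2.6 and 1.97, and the part of RNA quality in these results was not tested.

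**Figure D4:**
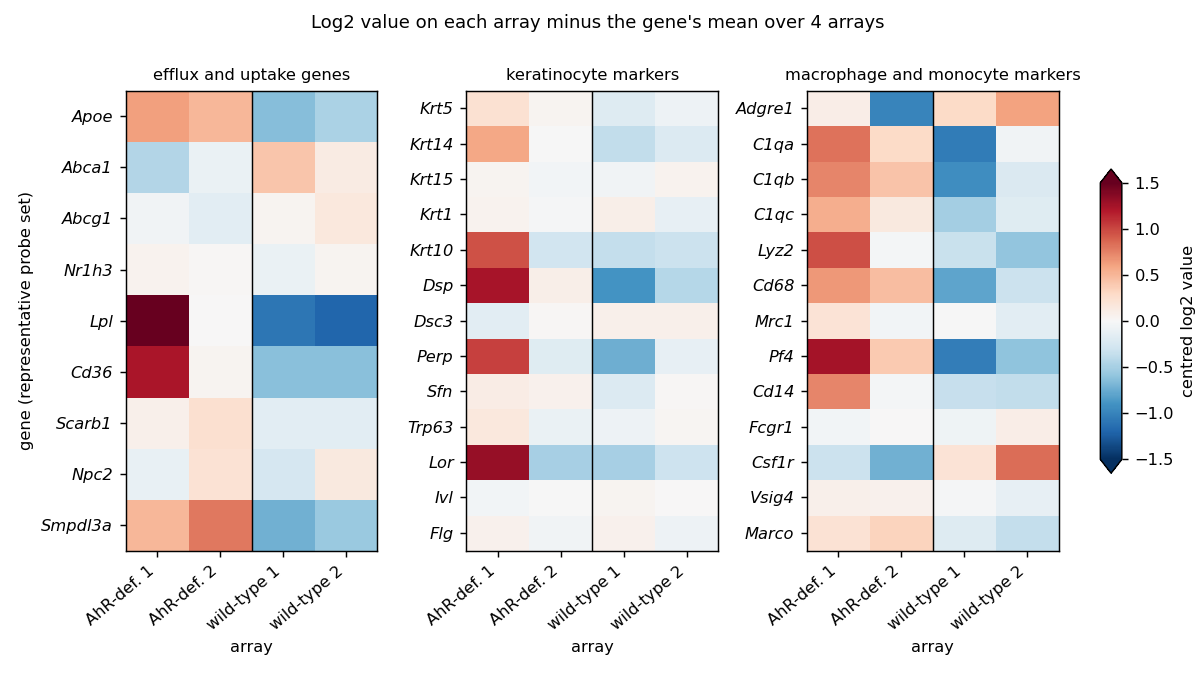
Log2 value on each array minus the gene's mean over the 4 arrays (colour, from blue for low to red for high; darkest beyond 1.5) for the 9 efflux and uptake genes, 13 keratinocyte markers and 13 macrophage and monocyte markers, with 1 row per gene and 1 column per array. Lpl, Cd36, Dsp and Krt10 are highest on AhR-deficient replicate 1, while Apoe and Smpdl3a are high on both AhR-deficient arrays.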

How the data were processed

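Affymetrix MOE430A arrays were read from 4 samples of sorted Langerhans cells, 2 per genotype. The authors deposited 1 log2 value for each probe set and array. Per the submitters' processing notes the tools were affy and RMA, which corrects background, normalises by quantiles and summarises probes. For their versions and the genome build, the sources used here give none. The values were used without further scaling, with array medians from 5.60 to 5.63. Affymetrix controls (64 of 22690 probe sets) were left out.

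The platform annotation gave 1 symbol to 20380 of the probe sets. Where a gene had several, the one brightest on average stood for it. Genotypes were compared across all probe sets with limma 3.58.1 under R 4.3.3 (a linear fit with moderated variances, two-sided, Benjamini-Hochberg over 22626 probe sets, threshold 0.05). The steps were tested on simulated data. An exact permutation test over 2 against 2 arrays cannot go below p = 0.333, so none was run. Precision is limited by having 2 arrays per group; the SE had a median of 0.10.

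The genes and lists were chosen with earlier results of these data known. Named genes were the 10 listed genes, from each pathway list those passing and the 2 with the smallest p, a few set genes of LXR action, uptake and storage, the 5 nearest to Apoe and defining markers; further list genes were named after their values were seen. Soat1 had no probe set given to it alone, and 1 further gene set by the rule is not reported here. The search for near matches to the DR4 pair was added after the data were seen. Promoter sequences are from RefSeq, build GRCm38.p6. The alternatives tried were a robust or trended variance fit, the replicate number as a block, no dim probe sets, renormalising, array weights, adding 16 on the linear scale, averaging the probe sets of a gene, no cross-hybridising probe sets and leaving out each array.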

Additional observations from a re-analysis of the deposited data

How the results depend on the processing

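None of the 15 tested probe sets gained a call under any of 12 alternatives (173 fits). Array weights came out equal, but with 2 arrays per group they cannot rank the replicates of a genotype. Apoe and Smpdl3a kept their direction under the 12 alternatives, which is no support, as both were picked for being higher on these same arrays. Apoe was 0.83 with 16 added on the linear scale and 1.03 to 1.20 with 1 array left out. For Smpdl3a these values were 1.08 and 1.14 to 1.43. The count of genes higher without overlap by at least 1 was 4 of 9, and 2 of the 7 other than Apoe and Smpdl3a. With 16 added the counts were 2 and 1, and with 1 array left out 3 to 4 and 1 to 2. Without dim probe sets they were 3 and 1, as Cd36 was dropped as dim and 8 genes remained. Over all probe sets, 0 higher and 4 lower were called, but 1 and 7 with a trend in eBayes. The 4 lower calls became 0 with 16 added on the linear scale and 0 with any array left out. With a replicate block 0 were called, and same-numbered arrays deviated from their group means in opposite ways (correlation -0.309); crossing the numbers in the block, chosen after seeing the data, also gave 0. The replicate block changed no call of the genes described here.

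The median of the 9 genes (0.31) was 0.23 with 16 added, 0.21 without dim probe sets (8 genes), 0.19 with all probe sets of a gene averaged, and 0.23 to 0.40 with 1 array left out. The count of higher pathway genes (16) was 26 to 40 and that of lower ones (12) 17 to 25 with 1 array left out, where a single array overlaps less often. The lysosomal median (0.09) was 0.04 to 0.23. Differences near 0 changed sign: the Scarb1 probe set 1437378_x_at gave -0.01 with median centring and -0.003 with renewed quantiles, and -0.08 to 0.08 with 1 array left out. With 1 array left out, 1455820_x_at of Scarb1 ran from -0.15 to 0.03, Abca1 from -0.24 to 0.14 (1421839_at) and from -0.05 to 0.04 (1450392_at), and Npc2 from -0.09 to 0.31 (1448513_a_at) and from -0.02 to 0.55 (1416901_at). The deposited values carry no detection calls, so differences of dim probe sets may be understated.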
